A study of Mus musculus with 17 samples.

Results

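The 204 immunoglobulin variable (V) segments described here are the rows of the B cell expression table whose gene symbol starts with Ighv, Igkv or Iglv followed by a digit and whose counts reached a sum of 50 over the 9 B cell libraries. They were 101 segments of the heavy chain locus Igh on chromosome 12, 100 of the kappa light chain locus Igk on chromosome 6 and 3 of the lambda light chain locus Igl on chromosome 16, out of 348 V rows and 55491 rows in all. Of the other V rows, 61 had at least 1 count and 83 had none. The last segments inside the minimum were Ighv8-6, Ighv1-23 and Ighv1-62-3, with sums of 59, 62 and 65 counts, and the last outside it were Igkv4-56, Ighv1-43 and Ighv1-83, with 48, 47 and 45. The GENCODE M21 annotation lists 195 of the 204 as V genes and 9 as V pseudogenes.

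RNA was sequenced from mouse B cells labelled as spleen. The genotype field of every library says WT and names no allele, but the series text says that the donors were KPC mice, which develop pancreatic tumours. There were 3 libraries from cells kept without drug (Control), 3 from cells incubated with MSA2, a small-molecule agonist of the innate immune sensor STING, and 3 from cells incubated with MSA2 and IPI-549, an inhibitor of the lipid kinase PI3Kγ (called the combination). The labels give no dose, time, age or sorting step, no group had IPI-549 alone, and the treatment field says Control for every library, so groups were read from the titles. It is not stated whether replicates came from separate mice, and p-values may therefore measure technical spread alone. The total count was 41093440 to 51433008 per library. The MSA2 libraries carry the numbers 8, 11 and 12 and the other B cell libraries 1 to 6, so handling in that order and MSA2 cannot be told apart.

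Each B cell assembles its antibody genes by cutting and joining DNA. A heavy chain exon is built from 1 V, 1 D and 1 J segment and a light chain exon from 1 V and 1 J segment. The V segment in a transcript is a trait of the clone it came from, but many clones share a segment. Segment shares therefore do not count clones. A diverse, mostly resting B cell population spreads its transcripts over many segments, and each chain type is chosen at the level of the cell: most mouse B cells carry kappa and a minority lambda. On activation a B cell can replace the IgM and IgD constant regions by IgG, IgA or IgE through class switching without changing its V segment, and cells that become plasma cells raise their immunoglobulin transcripts steeply. In whole-population RNA, more cells with a segment and more RNA per cell cannot be told apart, and in the groups compared here this holds for every value below.

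The germline ends of 6 segments are printed first. They are the final 75 bases of the germline coding part (GENCODE M21, GRCm38), chosen because these segments led their locus or rose strongly with MSA2, with Igkv14-126 added as the known light chain partner of Ighv11-2. Capitals mark the last in-frame cysteine codon, which encodes the conserved cysteine that borders the CDR3 loop, the part of the antibody where the joint to D or J falls.
Ighv1-26: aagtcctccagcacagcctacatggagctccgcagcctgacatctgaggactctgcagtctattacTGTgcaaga
Ighv8-8: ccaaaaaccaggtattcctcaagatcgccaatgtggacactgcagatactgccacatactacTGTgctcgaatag
Ighv11-2: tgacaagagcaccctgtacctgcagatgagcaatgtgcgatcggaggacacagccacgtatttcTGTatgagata
Igkv1-110: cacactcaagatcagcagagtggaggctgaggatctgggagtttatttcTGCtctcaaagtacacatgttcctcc
Igkv8-30: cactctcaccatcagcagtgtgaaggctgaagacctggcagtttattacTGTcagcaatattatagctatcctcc
Igkv14-126: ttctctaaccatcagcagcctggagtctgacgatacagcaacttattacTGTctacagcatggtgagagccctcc
On GRCm38 these segments lie at chr12:114788372-114788805 (Ighv1-26), chr12:115294062-115294504 (Ighv8-8) and chr12:114048241-114048812 (Ighv11-2), all on the minus strand. Igkv1-110 (chr6:68270485-68271267) and Igkv14-126 (chr6:67896172-67896642) are on the plus strand and Igkv8-30 (chr6:70117061-70117620) on the minus strand. Of the 194 members whose annotated coding part starts with ATG, 192 had this codon within 30 bases of the end. Only 6, 10 and 8 germline bases follow it in Ighv1-26, Ighv8-8 and Ighv11-2, and 23 in each of the 3 kappa segments.

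Similar sequence limits how exactly a read can be placed. The median identity of a member to its nearest V segment was 95.4%, and 41 members (22 Igh, 19 Igk) had a neighbour at least 97% identical. The authors' counting divides such reads by an estimate, so the split between near-identical segments is uncertain. The pair Iglv1 (chr16:19085017-19085500, minus strand) and Iglv2 (chr16:19260401-19260859, minus strand) is shown over the last 300 coding bases because the lambda results turn on telling them apart; capitals mark the bases that differ between the 2 germline sequences.
Iglv1: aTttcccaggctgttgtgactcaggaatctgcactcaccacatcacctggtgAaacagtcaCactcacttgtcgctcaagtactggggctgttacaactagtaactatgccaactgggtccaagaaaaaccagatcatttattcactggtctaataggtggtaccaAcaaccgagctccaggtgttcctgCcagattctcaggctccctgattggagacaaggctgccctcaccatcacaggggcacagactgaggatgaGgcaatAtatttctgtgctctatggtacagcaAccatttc
Iglv2: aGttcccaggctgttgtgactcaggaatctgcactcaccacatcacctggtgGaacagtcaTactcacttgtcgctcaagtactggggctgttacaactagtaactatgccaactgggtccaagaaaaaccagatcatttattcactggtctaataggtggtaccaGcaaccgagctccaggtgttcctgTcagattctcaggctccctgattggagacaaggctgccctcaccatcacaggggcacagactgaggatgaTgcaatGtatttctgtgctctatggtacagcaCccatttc
They differed at 11 of 351 coding bases, 8 of them in the stretch shown. Iglv3 was 72.7% identical to Iglv2, its nearest segment, and its reads are easier to place.

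Shares of a locus were first described in the Control libraries. The segment Ighv1-26 held most Igh counts in every Control library, with 4.88% ± 0.12 (SD, n = 3), followed by Ighv8-8 (4.30% ± 0.041), Ighv1-64 (3.85% ± 0.10), Ighv1-82 (3.70% ± 0.10) and Ighv1-55 (3.43% ± 0.19). At Igk, Igkv1-117 led with 6.56% ± 0.26, ahead of Igkv1-135 (5.20% ± 0.19), Igkv10-96 (4.94% ± 0.21), Igkv1-110 (4.68% ± 0.18) and Igkv19-93 (3.56% ± 0.02). No segment dominated: in Control the 10 most used segments held 33.8% ± 0.16 of Igh counts and 38.4% ± 0.59 of Igk counts, and 17 to 18 Igh segments were needed to reach 50% of the locus. These are shares of counts and not of molecules per length. V segments are of like length (338 to 394 coding bases over the 195 members with a coding part). Over all 9 libraries, MSA2 included, Ighv8-8 had the highest mean share at Igh and Igkv1-117 at Igk. Both also led their locus per kilobase of exon. By family, Ighv1 (51 members) held 54.8% of Igh counts in Control and Ighv5 (9 members) 9.31%, while Igkv1 (8 members) held 17.7% of Igk counts and Igkv4 (29 members) 13.6%.

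Outside the B cell libraries V transcripts were scarce. In the 8 libraries of bone marrow-derived dendritic cells of the series, the 204 members had 42 to 115 counts in all, at most 2.65 CPM (counts-per-million values, here on the plain library total). The lowest B cell library had 1765 CPM, 667 times that value.

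With MSA2 the V transcripts rose in sum, most at the heavy chain. Summed levels are in CPM scaled with edgeR's trimmed mean of M-values (TMM). Igh V segments had 510, 495 and 567 CPM in Control, 821, 954 and 898 CPM in MSA2 and 567, 510 and 533 CPM in the combination. Every MSA2 library was above all others, and Control and the combination overlapped. Igk V segments had 1297, 1261 and 1404 CPM in Control, 1588, 1690 and 1749 CPM in MSA2 and 1314, 1195 and 1168 CPM in the combination, with MSA2 again above all others. The 3 lambda segments had 203 to 206 CPM in Control, 212 to 233 CPM in MSA2 and 166 to 193 CPM in the combination, and here none of the groups overlapped.

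These sums, the lambda share and the effective numbers below make 6 quantities, each compared over the 3 groups with an exact permutation test. The exact p was 0.0286 for Igh, 0.0107 for Igk and 0.00357 for Igl, and 0.0161 to 0.0286 over all 6 after Benjamini-Hochberg adjustment. Between any 2 groups of 3 libraries the exact test cannot give less than 0.1, two-sided. It gave 0.1 for MSA2 against Control in all 6 quantities, and 0.8, 0.3 and 0.1 for the combination against Control in the Igh, Igk and Igl sums. Lambda segments supplied 13.4% ± 0.68 of light chain V counts in Control, 11.6% ± 0.22 in MSA2 and 12.8% ± 0.31 in the combination (exact permutation p = 0.0107 over the 3 groups, n = 3 each).

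**Figure D1:**
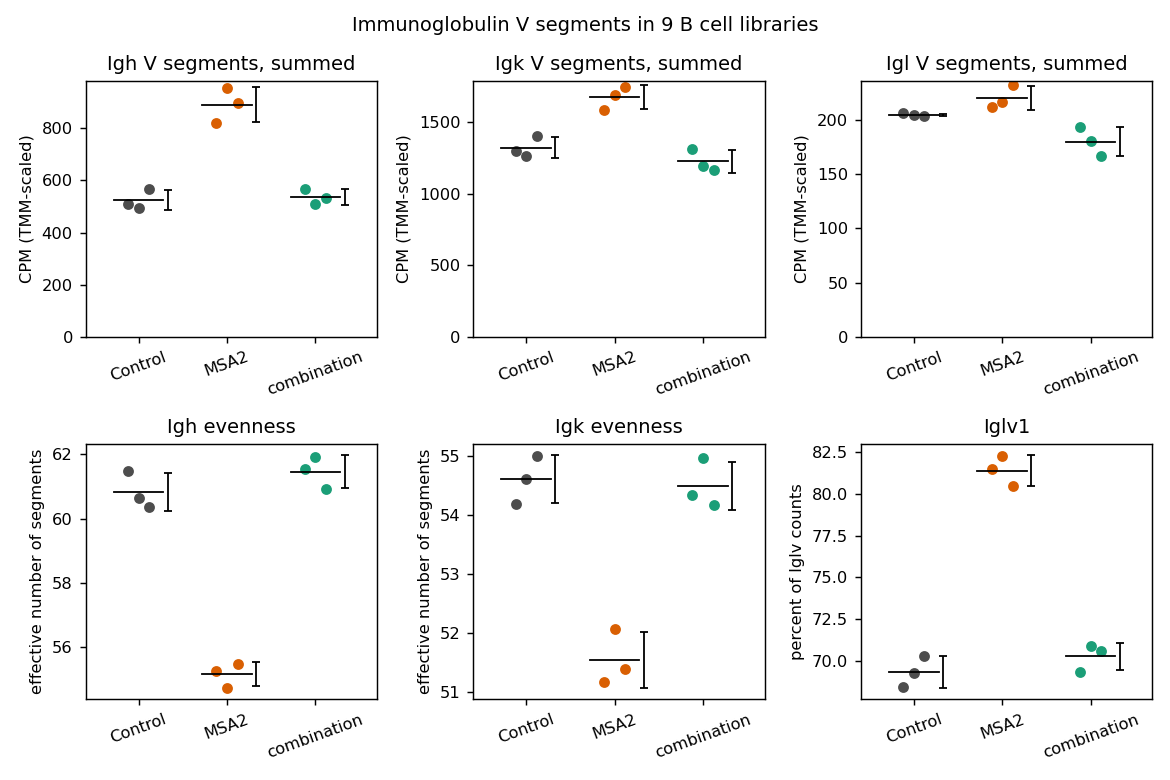
Summed V segment level of each locus (CPM, TMM-scaled, axes from 0), effective number of segments at Igh and Igk and the Iglv1 share of lambda V counts (percent) in 9 B cell libraries; the lower axes do not start at 0. Points are libraries, lines are group means and bars the SD of 3 libraries. The MSA2 points lie above the other groups in the sums and in the Iglv1 share and below them in both effective numbers.

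Usage also became less even with MSA2. The effective number of segments is the exponential of the Shannon entropy of the shares; it equals the number of segments that would give the same entropy if all were used equally. At Igh it was 61.5, 60.7 and 60.4 in Control, 55.3, 54.7 and 55.5 in MSA2 and 61.5, 61.9 and 60.9 in the combination (exact permutation p = 0.00714 over the 3 groups). At Igk it was 54.2, 54.6 and 55.0 in Control, 51.2, 52.1 and 51.4 in MSA2 and 54.4, 55.0 and 54.2 in the combination (exact permutation p = 0.025). In both loci all MSA2 libraries were below all others. The difference from Control was -5.68 at Igh and -3.06 at Igk, and the combination differed from Control by 0.63 and -0.11. The inverse Simpson number, which weights frequent segments more, moved alike at Igh: 47.4 ± 0.47 in Control, 40.4 ± 0.39 in MSA2 and 47.7 ± 0.69 in the combination. At Igk that measure was 40.1 ± 0.83, 38.4 ± 0.75 and 39.9 ± 0.81 in the same order. All MSA2 libraries were again below all others, but narrowly: the highest MSA2 library had 39.26 and the lowest Control library 39.30. Control and the combination overlapped.

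The most used Igh segment changed. Without Ighv8-8 the Igh effective number was -3.31 from that of Control with MSA2, compared with -5.68 when it is counted. In each of the 3 MSA2 libraries Ighv8-8 was first in place of Ighv1-26, with 7.74% ± 0.28 of Igh counts against 4.30% ± 0.041 in Control and 3.90% ± 0.20 in the combination. The 10 most used Igh segments held 37.7% ± 0.48 with MSA2 and 33.8% ± 0.49 with the combination. The corresponding Igk shares stayed at 38.8% ± 0.60 and 38.3% ± 0.49, and Igkv1-117 kept the first place there except in MSA2 replicates 1 and 3, where Igkv1-110 led. All 101 Igh and 100 Igk members had a count in every library, so no segment of the set was lost from a group.

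Each member was next tested in edgeR over the 9 libraries, in 1 fit for its level (scaled by TMM) and in another for its usage (scaled to the summed member counts of its own locus). Of the 204 members, 199 passed the filter on low counts and 5 Igh members did not. Calls are at a Benjamini-Hochberg adjusted p under 0.05 over all 16180 genes tested with edgeR's quasi-likelihood test. In level, MSA2 against Control, 95 members were higher (47.7% of 199) and 19 lower (9.55%), with a median log2 change of 0.38. Over all genes tested 24.9% were higher and 18.5% lower, with a median of -0.01. By locus, 59 Igh members were higher and 1 lower, against 35 and 16 at Igk and 1 and 2 at Igl. Scaled by 12 B cell marker genes in place of TMM, the split was 160 higher and 0 lower. That scaling moved the median of all genes by 0.90 on the log2 scale and gave the members a median of 1.3.

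In usage, MSA2 against Control, 33 members had a higher share of their locus (13 Igh, 19 Igk and Iglv1) and 76 a lower one (29 Igh, 45 Igk, Iglv2 and Iglv3). In that fit 24.5% of all genes were called higher and 18.9% lower. Genes other than members keep their TMM scaling there. Rates over all genes in the usage fit, here and below, are thus almost all changes of level and not of share. The balance depends on the scaling: with the median of ratios within the locus as the reference, 49 were higher and 44 lower. Shares of a locus sum to a fixed total, so a rise of 1 frequent segment lowers the share of all others by arithmetic. Dropping the top segment from the locus sum left 34 higher and 67 lower.

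For the combination against Control, no member was called in level or in usage in either direction. Over all genes the calls were 0.686% higher and 0.371% lower in level, and 0.686% and 0.371% in the usage fit. The smallest adjusted p of a member was 0.284 in level and 0.213 in usage (edgeR), 11 and 7 of 199 members had an unadjusted p under 0.05, and DESeq2 also called 0. Against MSA2, the combination had 15 members higher and 92 lower in level, where 14.1% and 22.9% of all genes were called, and 72 higher and 31 lower in usage, where 14.5% and 22.5% were. Scaled by B cell marker genes, 0 members were higher and 163 lower in level, and with the median of ratios within the locus as reference 40 were higher and 52 lower in usage. The 15 became 9 without MSA2 replicate 1 or any 1 of combination replicates 1, 2 and 3, 9 with the compared groups alone, and 7 with a filter of 1 CPM in 3 libraries. This contrast shares its MSA2 libraries with the first. The 95 members higher in level with MSA2 had a median log2 change of 0.78 with MSA2 and -0.01 with the combination, each against Control, and the 19 lower ones -0.77 and -0.09. In usage the medians were 0.55 and 0.01 for the 33 higher members, and -0.78 and 0.02 for the 76 lower ones.

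**Figure D2:**
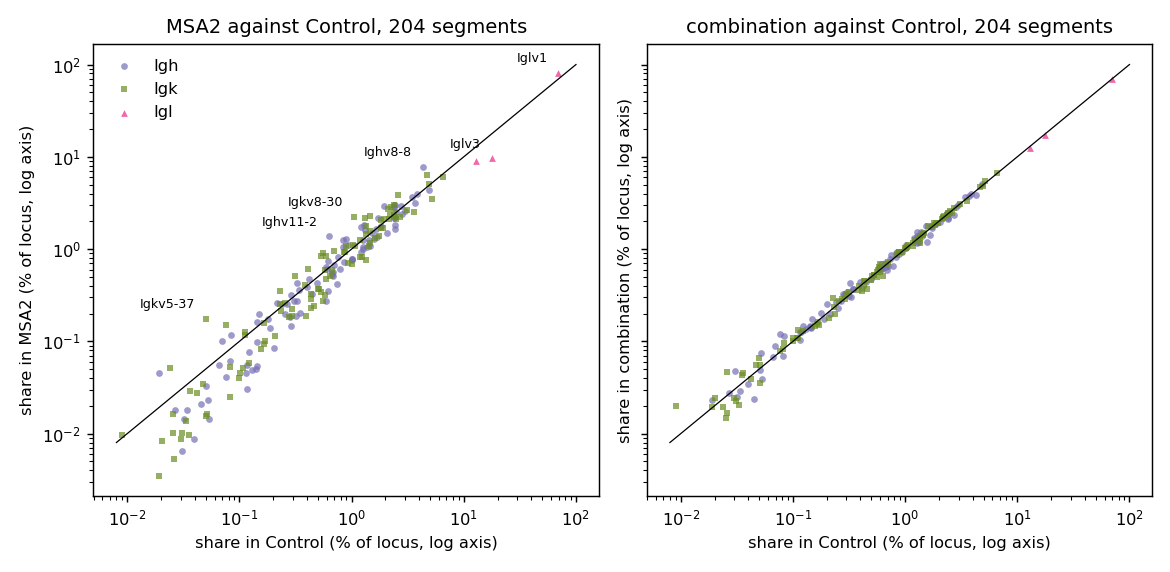
Mean share of the locus (percent, log axes) of 204 V segments in MSA2 (left) and in the combination (right) against Control, each point a segment by locus, with the line of equal shares. Points scatter around the line with MSA2, where Ighv8-8 went from 4.30 to 7.74% and Iglv3 from 17.7 to 9.61%, and lie close to it with the combination.

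Among heavy chain segments the largest rises in named members were those of Ighv8-8 and Ighv11-2. Ighv8-8, a member of a small family, was at 21.7, 21.5 and 24.4 CPM in Control, 61.0, 76.1 and 70.2 CPM in MSA2 and 23.4, 19.2 and 20.2 CPM in the combination. All MSA2 libraries stood above 61 CPM and all others below 25. Its level rose by 1.62 ± 0.11 (log2, SE; adjusted p = 3.56e-07) and its usage by 0.85 ± 0.07 (adjusted p = 2e-06, edgeR). Its nearest neighbour Ighv8-11, 96.1% identical, had only 28 counts in all. The Ighv8 family, Ighv8-8 included, went from 7.26% ± 0.039 to 10.6% ± 0.43 of Igh counts, a rise that was mostly that of Ighv8-8. Of its 5 tested members, Ighv8-8 and Ighv8-4 (mean of 0.21 CPM) were higher in usage. Ighv8-2 was lower, by -1.40, and Ighv8-12 had a usage change of 0.02 that was not called.

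Ighv11-2 is known from B-1a cells, a self-renewing B cell type of the body cavities and spleen, where it pairs with Igkv14-126 in antibodies against phosphatidylcholine. It had 2.52, 3.06 and 4.38 CPM in Control, 12.1, 13.6 and 10.9 CPM in MSA2 and 3.51, 3.44 and 2.73 CPM in the combination. The MSA2 libraries did not overlap with the others. Its level rose by 1.88 ± 0.19 (adjusted p = 1.36e-05) and its usage by 1.13 ± 0.17 (adjusted p = 0.000284, edgeR). The neighbour Ighv11-1 is 98.9% identical and had 42 counts in all, under the minimum.

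Its partner and the segments of a related pair were looked up after the values were seen. Igkv14-126 had 6.37, 7.0 and 7.58 CPM in Control, 13.3, 16.2 and 13.0 CPM in MSA2 and 6.80, 6.21 and 6.10 CPM in the combination, again with no overlap of MSA2 with the rest. It rose by 1.02 ± 0.12 in level (adjusted p = 3.49e-05) and 0.68 ± 0.11 in usage (adjusted p = 0.000511, edgeR). Ighv12-3 and Igkv4-91 form another known pair with that specificity. Igkv4-91 went from 7.33 ± 0.12 CPM to 15.1 ± 2.0 CPM with MSA2 and 6.96 ± 0.71 CPM with the combination, and its usage rose by 0.69 ± 0.10 (adjusted p = 0.000194, edgeR). Ighv12-3 stayed low, with 0.94, 0.59 and 0.72 CPM in Control and 0.72, 1.97 and 1.73 CPM in MSA2. Its groups overlapped; the level was called (0.96 ± 0.35, adjusted p = 0.0467, edgeR) and the usage was not (0.18 ± 0.33, adjusted p = 0.704). The level call was lost without any 1 library other than Control replicate 1 or MSA2 replicate 1 (adjusted p up to 0.166), and at an adjusted p of 0.0806 with the title suffix as a replicate block. Pairing of chains within cells was not measured, since the RNA came from whole populations.

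Other Igh members rose with similar sizes. Ighv1-19 went from 10.2 ± 0.99 to 26.2 ± 0.91 CPM with MSA2 and was at 10.2 ± 0.52 CPM with the combination, a log2 rise of 1.36 ± 0.09 in level and 0.60 ± 0.08 in usage. Ighv5-9 rose by 1.36 ± 0.16 in level, from 4.37 ± 0.36 to 11.2 ± 0.49 CPM. Ighv14-3 rose from 6.77 ± 0.08 to 16.2 ± 2.0 CPM and Ighv1-81 from 4.66 ± 0.37 to 11.3 ± 1.5 CPM. In usage these 4 segments passed the test too, the last 2 with 0.48 ± 0.10 and 0.51 ± 0.14. The most used segment of Control behaved otherwise: Ighv1-26 rose in level from 25.6 ± 2.4 to 38.4 ± 1.9 CPM (0.59 ± 0.09), and its usage change of -0.18 ± 0.07 was not called (adjusted p = 0.0584, edgeR). Ighv1-64 and Ighv1-55 likewise rose in level, by 0.80 ± 0.09 and 0.87 ± 0.11, with usage changes of 0.03 and 0.11 that were not called.

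**Figure D3:**
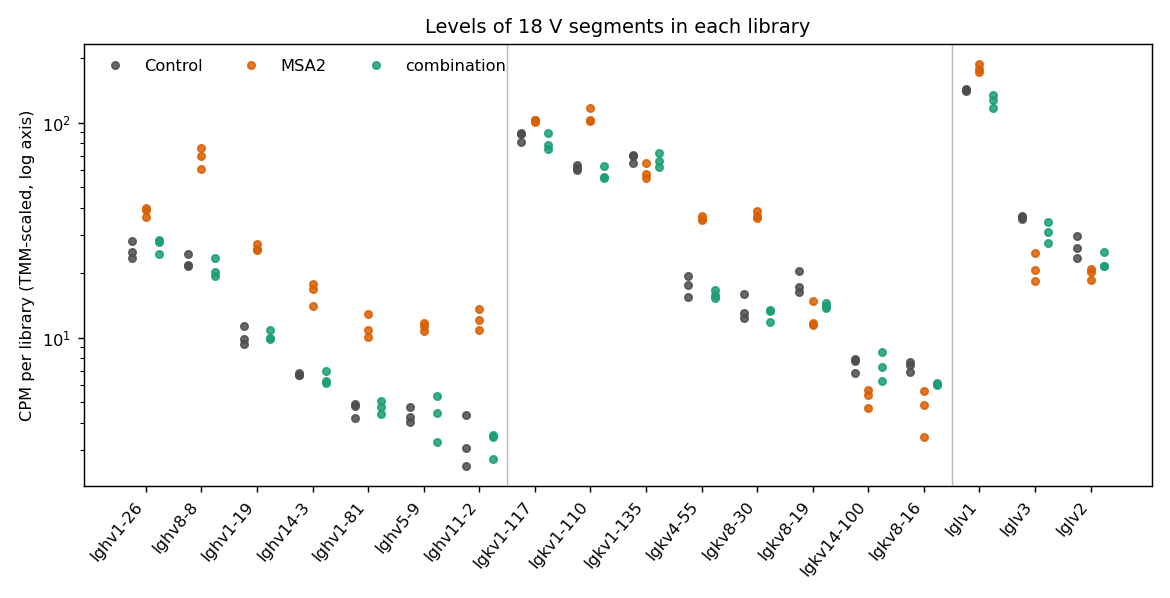
Level of 18 V segments in each of 9 B cell libraries (CPM, TMM-scaled, log axis), with Igh, Igk and Igl segments separated by lines and 3 points per group. Ighv8-8 and Ighv11-2 stand higher in MSA2, Igkv8-16 and Iglv3 lower, and the combination points lie near those of Control.

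At the kappa locus both directions occurred. Igkv8-30 had 12.4, 13.1 and 15.9 CPM in Control, 35.9, 36.9 and 38.7 CPM in MSA2 and 13.3, 13.4 and 11.9 CPM in the combination. MSA2 was above all other libraries, and the rise was 1.43 ± 0.10 in level (adjusted p = 7.81e-07) and 1.09 ± 0.09 in usage (adjusted p = 1.63e-06, edgeR). Igkv4-55 went from 17.4 ± 1.9 to 35.9 ± 0.85 CPM, with a usage change of 0.71 ± 0.09. Igkv4-74 rose in usage by 0.56 ± 0.11, from 0.411% ± 0.037 to 0.607% ± 0.035 of Igk counts, and was at 0.352% ± 0.024 with the combination. Igkv1-110 rose from 61.8 ± 1.9 to 107 ± 9.1 CPM and in usage by 0.45 ± 0.07, while its 97.2% identical neighbour Igkv1-117 rose in level by 0.24 ± 0.08 (a call lost without Control replicate 1 or 2, adjusted p = 0.0563 and 0.136) and had a usage change of -0.10 ± 0.07 that was not called.

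Fewer Igk segments fell in level than rose. Igkv8-16 had 6.95, 7.43 and 7.67 CPM in Control, 3.46, 5.67 and 4.86 CPM in MSA2 and 6.10, 6.16 and 6.01 CPM in the combination. Its MSA2 libraries lay below all others, and the change was -0.66 ± 0.16 in level (adjusted p = 0.00649) and -1.01 ± 0.15 in usage (adjusted p = 0.000264, edgeR). Igkv8-19, of the same family, changed by -0.50 ± 0.12 in level, Igkv14-100 by -0.52 ± 0.14 and Igkv13-84 by -0.58 ± 0.18. The level call of Igkv13-84 was lost without Control replicate 1 (adjusted p = 0.0656) and without MSA2 replicate 2 (adjusted p = 0.0540). Scaled by B cell marker genes, Igkv8-19 and Igkv14-100 rose with MSA2, by 0.41 (adjusted p = 0.00411, edgeR) and 0.39 (adjusted p = 0.0343). Igkv8-16 and Igkv13-84 were at 0.26 and 0.32 under that scaling and were not called. Their usage does not use that scaling. Igkv6-13 was lower in usage alone, by -0.65 ± 0.13. Among the frequent segments, Igkv1-135 fell from 5.20% ± 0.19 to 3.52% ± 0.16 of Igk counts and was at 5.44% ± 0.25 with the combination. Igkv19-93 fell from 3.56% ± 0.02 to 2.51% ± 0.12 and was at 3.30% ± 0.07 there. Their levels, at -0.22 ± 0.08 and -0.16 ± 0.09, were not called.

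The 3 lambda segments moved apart. Iglv1 had 141, 141 and 143 CPM in Control, 173, 178 and 187 CPM in MSA2 and 134, 128 and 117 CPM in the combination. Iglv3 had 35.5, 36.5 and 36.9 CPM in Control, 20.7, 18.3 and 24.7 CPM in MSA2 and 34.3, 31.0 and 27.5 CPM in the combination. MSA2 was the highest group for Iglv1 and the lowest for Iglv3, with no overlap in either. The level changes with MSA2 were 0.34 ± 0.07 for Iglv1 (adjusted p = 0.00247), -0.77 ± 0.11 for Iglv3 (adjusted p = 0.000228) and -0.42 ± 0.10 for Iglv2 (adjusted p = 0.00676, edgeR). The Iglv1 share of lambda V counts was 69.3% ± 0.94 in Control, 81.4% ± 0.91 in MSA2 and 70.3% ± 0.83 in the combination. With 3 segments the shares bind each other: against a locus sum without Iglv1, the usage changes of Iglv3 and Iglv2, -0.88 and -0.53 in full, were -0.17 and 0.20, and neither was called. That sum holds Iglv2 and Iglv3 alone, so a rise of 1 goes with a fall of the other by arithmetic. Without Iglv1 the sum of the other 2 segments was lower in MSA2 than in Control by 21.7 CPM, where the full lambda sum was higher. With B cell marker scaling the level change of Iglv3 was 0.13 and not called, and Iglv2 rose by 0.49.

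The lambda constant regions gave a partly separate reading of that locus. Iglv2 and Iglv3 lie upstream of Iglc2, and Iglv1 upstream of Iglc3 and Iglc1. With MSA2, Iglc2 and Iglc3 fell by 1.0 and 0.89 on the log2 scale. Scaled by B cell marker genes these changes were -0.10 and 0.02, and neither was called. Iglc1 rose by 0.29 ± 0.10 (adjusted p = 0.0400, edgeR), a call lost without Control replicate 1, 2 or 3, MSA2 replicate 1 or 3, or combination replicate 1 or 2 (adjusted p up to 0.132). There were 35.3 ± 1.3 lambda V counts for each 100 lambda constant counts in Control, 60.3 ± 7.5 in MSA2 and 35.0 ± 0.25 in the combination, with MSA2 replicates 1, 2 and 3 at 57.4, 68.8 and 54.6. Iglc2 and Iglc3 are near-identical in sequence, and the split of their reads is uncertain. For kappa the ratio was 82.9 ± 1.2, 74.5 ± 9.1 and 81.9 ± 2.2 V counts per 100 Igkc counts, with overlapping groups. For Igh it was 9.09 ± 0.055, 10.7 ± 1.5 and 9.11 ± 0.33 per 100 heavy chain constant counts, where MSA2 replicate 2 reached 12.5. These are ratios of counts over features of different length.

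The usage calls were also counted by how frequent a segment was in the combination libraries, which are outside the contrast of MSA2 with Control. Among the 50 Igh members above the median share there, 11 were higher and 14 lower with MSA2, and of the 46 tested members at or under it 2 were higher and 15 lower. At Igk the counts were 13 higher and 17 lower of the 50 above the median share, and 6 and 28 of the 50 at or under it. Over all 199 tested members 16.6% were higher and 38.2% lower in usage. Over all genes in that fit the calls were 24.5% higher and 18.9% lower. The less frequent members had median usage changes of -0.41 (Igh) and -0.65 (Igk), against -0.13 and 0.04 for the frequent ones. They held 12.3% of Igh and 9.31% of Igk counts in the combination. Of the 9 members annotated as pseudogenes, which cannot give a functional chain, 8 were tested and all 8 had a lower share with MSA2, with medians of -1.90 at Igh (3 tested) and -1.84 at Igk (5 tested). The most abundant of them, Igkv4-77, had 1.24, 1.51 and 1.24 CPM in Control, 0.587, 0.810 and 0.908 CPM in MSA2 and 1.23, 1.31 and 1.39 CPM in the combination. Its MSA2 libraries were below all others. With B cell marker scaling its level change was 0.11 and not called. The subset split was made after the data were seen and is a description. The minimum was a sum over all 9 libraries, so a rare segment low with MSA2 could pass it through Control and the combination. Among the tested pseudogenes, Ighv1-38, Igkv12-40, Ighv4-2 and Igkv2-116 had sums of only 65, 75, 85 and 88 counts. The part of this selection in the falls of rare segments was not tested. Low members that rose were exceptions: Igkv5-37, outside the 5 CPM rule for named segments, went from 0.653 ± 0.20 to 2.91 ± 1.3 CPM, with 4.38 CPM in MSA2 replicate 2.

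**Figure D4:**
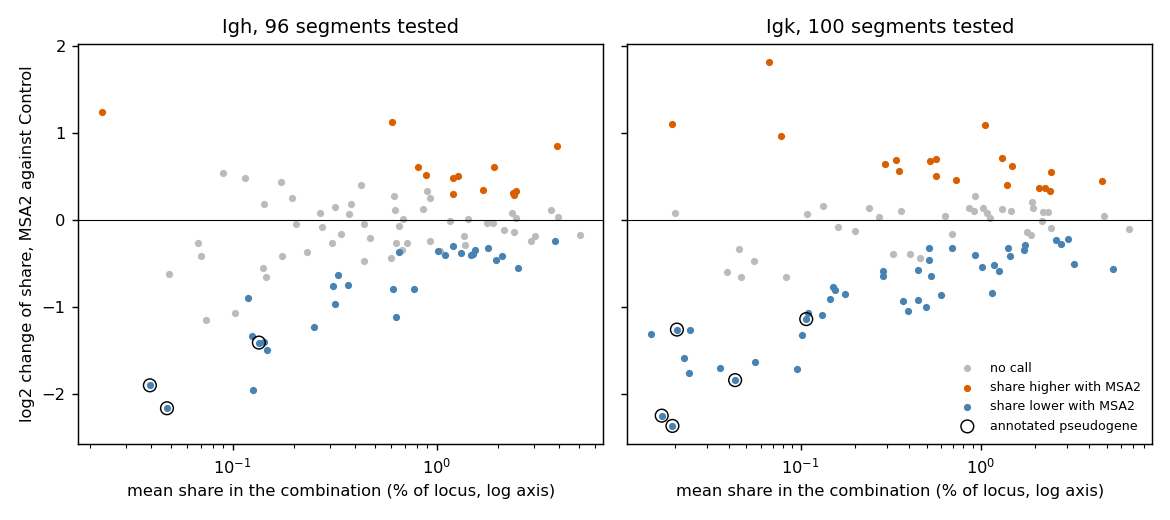
Log2 change of share with MSA2 against Control for 96 Igh and 100 Igk segments tested, against the mean share in the 3 combination libraries (percent, log axis), coloured by call at an adjusted p under 0.05, with annotated pseudogenes ringed. The ringed segments, 3 at Igh and 5 at Igk, all lie below 0, and most segments of low share do too.

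Position along the locus showed smaller shifts. Igh members were split into 3 like-sized stretches by distance from the first J segment. The nearest stretch held 26.2% ± 0.15 of Igh counts in Control and 26.3% with MSA2, the middle one 32.9% and 30.6%, and the farthest 40.9% and 43.1%. The farthest stretch holds Ighv8-8, whose share alone rose by more than that of the whole stretch. Shares of the stretches without Ighv8-8 were not computed, so these shifts are not shown to follow position. At Igk the middle stretch went from 19.7% to 22.1% and the nearest from 35.0% to 33.4%. By family, Ighv14 went from 4.23% ± 0.23 to 5.05% ± 0.14, Ighv2 from 4.79% ± 0.32 to 3.88% ± 0.12 and Ighv9 from 4.09% ± 0.16 to 3.20% ± 0.21. At Igk the Igkv4 family went from 13.6% ± 0.32 to 15.8% ± 0.16 and Igkv8 from 8.80% ± 0.38 to 7.67% ± 0.05. In each of these 5 families MSA2 did not overlap with Control. The same held for the shares of 135 of the 204 single members, so it was not particular to these families. The share of all genes without overlap was not computed, so the 135 cannot be set against a general rate. Igkv8-30 rose within the falling Igkv8 family, where 7 of 9 tested members were lower in usage and 1 was higher. Within Igkv4, whose summed share rose, 9 of 29 tested members were higher in usage and 15 were lower.

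Replicates of a group were close but not within counting error alone. Over segments with at least 900 counts in all (62 at Igh, 71 at Igk), the median coefficient of variation of a share between replicates was 6.42% at Igh in Control, 8.13% in MSA2 and 8.16% in the combination. Counting error by itself gives medians of 5.69, 4.45 and 5.86%. At Igk the medians were 5.91, 8.12 and 5.88%, against 3.97, 3.75 and 4.19% from counting. A chi-square over segments between 2 libraries, divided by its degrees of freedom, was 1.71 to 2.37 between Igh profiles of Control replicates, 3.48 to 5.48 between MSA2 replicates and 12.6 to 16.8 between Control and MSA2. Control and combination libraries gave 1.73 to 2.73, about the range within a group. At Igk the ranges were 2.31 to 3.19, 4.91 to 6.74, 27.1 to 37.2 and 2.04 to 3.91 in the same order. Where profiles differ beyond counting error, this chi-square value also grows with the number of counts. The MSA2 libraries had 37775 to 43621 Igh V counts and the Control libraries 22656 to 25525. The part of this in the larger MSA2 values was not tested.

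Distances between share profiles gave the same picture. The Bray-Curtis distance, the percent of the profile that differs between 2 libraries, was 3.47 to 4.50% between Control replicates at Igh, 4.55 to 5.43% between MSA2 replicates and 11.2 to 12.2% between Control and MSA2. Between Control and the combination it was 4.10 to 5.76%. At Igk it was 2.85 to 3.64%, 4.02 to 4.86%, 11.1 to 13.0% and 2.60 to 4.03% in the same order. In both loci the nearest profile to a library was one of its own group in 6 of 9 cases.

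Constant region genes show which antibody classes the same libraries transcribed. Of 12 such genes, 7 rose with MSA2, 3 fell and 2 were not called, and 0 were called with the combination against Control. Over all genes tested, 24.9% were higher and 18.5% lower with MSA2, and 0.686% and 0.371% with the combination. Igha, the IgA constant region, had 141, 148 and 173 CPM in Control, 2603, 2342 and 2891 CPM in MSA2 and 131, 119 and 85.8 CPM in the combination. Its rise of 4.09 ± 0.17 (adjusted p = 1.4e-08, edgeR) took it from 2.66% ± 0.12 to 31.1% ± 0.39 of heavy chain constant counts. The IgG genes Ighg2c, Ighg1, Ighg3 and Ighg2b rose by 2.21, 2.09, 2.01 and 1.65. Ighd, transcribed with Ighm in naive B cells, fell by 0.89, and Ighm was at 4173 ± 289 CPM in Control and 4146 ± 315 CPM in MSA2 (-0.01 ± 0.11, not called). With B cell marker scaling Ighd was at 0.02, not called, and Ighm rose by 0.90. The IgG, IgA and IgE genes together made up 7.28% ± 0.82 of heavy chain constant counts in Control, 43.1% ± 0.85 in MSA2 and 5.87% ± 0.80 in the combination. These are counts per gene, and class switching itself was not measured. The counts do not tie a V segment to a constant region, so which segments, if any, these transcripts carried was not measured.

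**Figure D5:**
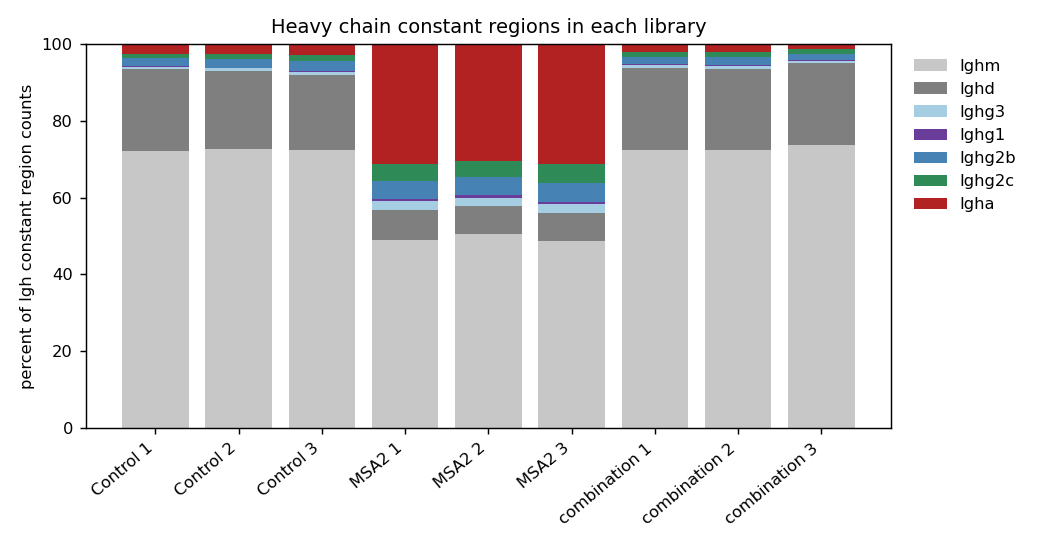
Share of each heavy chain constant region gene in the constant region counts of each B cell library (percent, stacked bars from 0). Igha makes up 31.1% on average in MSA2 and 2.66 and 1.90% in Control and the combination.

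Genes of antibody-secreting cells moved in both directions. Of 12, 6 rose with MSA2, 3 fell and 3 were not called, and 0 were called with the combination against Control. The shares over all genes tested were 24.9% higher and 18.5% lower with MSA2. With the combination they were 0.686% and 0.371%, so 0 of 12 is near the rate of all genes. Jchain, the joining chain of secreted IgM and IgA, had 254, 273 and 340 CPM in Control, 1392, 1099 and 1545 CPM in MSA2 and 237, 236 and 169 CPM in the combination, a rise of 2.22 ± 0.17 with MSA2. Tnfrsf17, the receptor BCMA of plasma cells, went from 0.205 ± 0.13 to 2.87 ± 0.58 CPM, Derl3 rose by 1.12, Prdm1, the plasma cell factor Blimp-1, by 1.03, and Xbp1, a factor of the secretory pathway, by 0.76. Creld2 rose by 0.36. Irf4, Ell2 and Mzb1 fell by 0.74, 0.69 and 0.47. With B cell marker scaling these were 0.18 and 0.22, not called, and a rise of 0.43. Sdc1, the plasma cell surface protein CD138, had a change of -0.26 ± 0.16 that was not called and of 0.64, called, with that scaling. The call of Creld2 was lost without Control replicate 1 (adjusted p = 0.0663).

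Markers of other cells moved with the MSA2 group as well. The 12 B cell markers all fell with MSA2, where 18.5% of all genes were called lower and 24.9% higher. The summed level of these markers was 9000 to 9605 CPM in Control, 4649 to 5208 CPM in MSA2 and 9089 to 9937 CPM in the combination. Of the other lists, 11 of 12 T cell markers rose, and all 8 of each list for NK cells, monocytes and macrophages, neutrophils and red cell precursors. Their sums went from 408 to 423 CPM in Control to 1267 to 1599 CPM in MSA2 for T cells, and from 2.09 to 32.4 CPM to 1474 to 1571 CPM for neutrophils. NK cell markers went from 14.2 to 19.6 CPM to 342 to 417 CPM, monocyte and macrophage markers from 42.0 to 60.8 CPM to 1265 to 1385 CPM, and red cell precursor markers from 21.7 to 44.9 CPM to 1055 to 1228 CPM. The part of these cells in the V segment results was not tested.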

How the data were processed

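Counts per gene for 9 B cell libraries were used. The authors deposited expected counts, and the submitters' processing notes list RSEM 1.3.3, STAR 2.7.8a, cutadapt 4.8 and the GRCm38 (mm10) build. RSEM divides reads that match several genes by estimate. The strand setting and annotation release are not given in the sources used here.

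Counts were rounded and fitted in edgeR 4.0.16 (R 4.3.3) by its quasi-likelihood F test, after TMM scaling and its default removal of low genes, over 16180 genes; Benjamini-Hochberg adjustment was over these genes, with calls under 0.05. The usage fit took the summed member counts of each locus as offset for the members. Other genes kept their TMM-scaled totals. Coordinates, biotypes and sequences come from GENCODE M21, matched by gene ID for all 348 V rows. Library quantities were compared with two-sided exact permutation tests. V rows under the minimum held 0.0897% of V counts.

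Named segments were the 5 with the highest share at Igh and Igk, all Iglv, any that led its locus in a library, up to 5 called per contrast and direction with a mean of at least 5 CPM and no overlap, the 6 with the largest ratio of highest to median level, and those nearest the minimum. The members and lists were chosen with earlier results of these data known. Fits were tested on simulated data. Alternatives were RLE factors, B cell marker scaling, DESeq2 1.42.0, other filters, other references for usage, each library left out in turn, the compared groups alone and a replicate block. Group means were removed before libraries were correlated over all genes. Between MSA2 and combination libraries of 1 title suffix the correlation was 0.29, 0.30 and 0.49 (-0.47 to 0.25 for different suffixes). The suffix may therefore pair these 2 groups, but the labels do not say what it means. Over the members alone the correlation was -0.06 to 0.06. With Control it was -0.02 to 0.13 over all genes, and not above 0.1 in every pair. The main fits have no block. A block within the compared groups alone was added for the combination against MSA2 after the data were seen.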

Additional observations from a re-analysis of the deposited data

How the results depend on the processing

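Of the summary values recomputed under the alternatives, 330 kept their direction and stayed within 1.5 times (counts), 15 moved further and 6 changed sign. B cell marker scaling gave 160 members higher and 0 lower in level for MSA2 against Control, and 0 higher and 163 lower for the combination against MSA2. It turned the level changes with MSA2 to 0.13 (Iglv3), 0.26 (Igkv8-16), 0.32 (Igkv13-84), 0.39 (Igkv14-100), 0.41 (Igkv8-19), 0.49 (Iglv2) and 0.11 (Igkv4-77), and those of the combination against MSA2 to -0.38 (Iglv3), -0.41 (Igkv13-84) and -0.45 (Igkv14-100). A filter of 1 CPM in 3 libraries, which tested 164 members, left 12 lower with MSA2 against Control and 7 higher in the combination against MSA2. The compared groups alone gave 9 for the latter, and leaving out 1 library gave 9 to 13. Leaving out 1 library gave 76 to 98 members higher in level with MSA2 and 14 to 20 lower, and 30 to 33 and 57 to 73 in usage. With the median of ratios as reference, usage had 44 members lower with MSA2 against Control, and 40 higher and 52 lower in the combination against MSA2. For the combination against Control, leaving out 1 library gave differences of -0.35 to 0.085 in the Igk effective number and -3.15 to 33.6 CPM in the Igh sum; the sign was turned without Control replicate 3 (0.085) or combination replicate 3 (0.047), and without Control replicate 2 (-2.23) or combination replicate 1 (-3.15). Without Iglv1 the lambda sum differed by -21.7 CPM for MSA2 against Control and by 12.6 CPM for the combination against MSA2, and the usage change of Iglv2 with MSA2 was 0.20. Per kilobase of exon the 10 most used Igh segments held 33.6% in Control. The title suffix as a replicate block gave 96 higher and 20 lower in level with MSA2, 33 and 74 in usage, 12 and 91 in level and 70 and 31 in usage for the combination against MSA2, and 0 for the combination against Control. With MSA2 and the combination alone, which the suffix may pair, the replicate block gave 10 and 96 in level and 71 and 32 in usage. The block changed no count by over 1.5 times, and the level of Ighv12-3 with MSA2 against Control (0.91) lost its call; no other named segment did. Counts of low segments limit precision: members near the minimum have about 50 counts over 9 libraries.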
